A study of Mus musculus with 6 samples.

Results

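The genes described here are 10 that carry iron into, through and out of the intestinal epithelial cell, store it, or sense it: Tfrc, Slc11a2, Cybrd1, Slc40a1, Heph, Fth1, Ftl1, Ncoa4, Ireb2 and Aco1. They were chosen by symbol from a table of 24956 genes, and all 10 were listed and passed the filter on low values. RNA was sequenced from mouse intestinal organoids, closed epithelial cultures grown in organoid medium, all of the genotype Apc Min, which carries a nonsense mutation in Apc, a brake on Wnt signalling. A control group of 3 libraries was set against 3 libraries treated with DM-aKG, a dimethyl ester made to carry α-ketoglutarate, a TCA cycle metabolite, across cell membranes. The controls carry the same Apc allele as the treated cultures, so no normal epithelium is in the comparison. The series asks, by its title, what α-ketoglutarate does to Wnt signalling and differentiation. The sources used here do not give the dose, the time of treatment, what the controls received, or the age and number of donor mice, so p-values measure the spread between these libraries, which may be technical.

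In an absorptive cell, iron in the gut lumen is reduced at the brush border by the reductase Cybrd1 and enters through the transporter Slc11a2 (DMT1). It leaves at the basal side through ferroportin (Slc40a1), with the copper oxidase hephaestin (Heph) converting it to the form that binds transferrin. The transferrin receptor (Tfrc) takes iron up from the basal side and serves dividing crypt cells. Spare iron is held in ferritin, a shell of heavy (Fth1) and light (Ftl1) chains, which the cargo receptor Ncoa4 delivers to lysosomes when iron is needed. The iron regulatory proteins IRP1 (Aco1, which with an iron-sulfur cluster is the cytosolic aconitase) and IRP2 (Ireb2) bind a hairpin in target mRNAs, the iron-responsive element, when iron is scarce. Bound in the 5′ UTR the proteins block translation, and bound in the 3′ UTR of Tfrc they protect the mRNA from decay.

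The hairpins are shown because they divide the genes into those whose mRNA level is known to be under this control and those controlled mainly at translation. In GENCODE transcripts of GRCm38 a 17-base pattern was searched in the UTRs on the transcript strand: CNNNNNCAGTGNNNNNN, with the 5 bases before the loop CAGTGN pairing with the 5 after it (G with T allowed). It was found in 0.136% of 20544 genes with a 5′ UTR and in 0.607% of 20937 genes with a 3′ UTR, and in 4 of the 10 iron genes. Each match is printed as DNA of the transcript strand with its flanks, in 30 bases, with the loop in capitals. Those of the ferritins and ferroportin lay in the 5′ UTR:
Fth1 element, chr19:9982731-9982760, plus strand: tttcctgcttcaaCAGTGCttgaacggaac
Ftl1 element, chr7:45459779-45459808, minus strand: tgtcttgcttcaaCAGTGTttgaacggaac
Slc40a1 element, chr1:45925465-45925494, minus strand: ccaacttcagctaCAGTGTtagctaagttt

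Tfrc had 4 matches, all in the 3′ UTR of 2461 bases and all on the plus strand:
Tfrc element 1, chr16:32631218-32631247: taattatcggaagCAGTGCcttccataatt
Tfrc element 2, chr16:32631597-32631626: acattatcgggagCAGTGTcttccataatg
Tfrc element 3, chr16:32631662-32631691: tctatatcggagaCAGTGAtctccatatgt
Tfrc element 4, chr16:32631709-32631738: taattatcgggaaCAGTGTttcccataatt

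A pattern with 1 extra unpaired base after the loop was added once Slc11a2 had not matched. It is found in the 5′ UTR of 0.204% and the 3′ UTR of 1.11% of genes, and of the iron genes in the 3′ UTR of Slc11a2 alone:
Slc11a2 element, chr15:100395152-100395181, minus strand: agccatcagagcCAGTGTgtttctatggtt

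The Slc11a2 match lies in the last exon of an annotated transcript, and other annotated Slc11a2 transcripts end elsewhere. The deposited level is per gene and does not separate these ends. Cybrd1, Heph, Ireb2, Aco1 and Ncoa4 matched neither pattern, which says only that these letters are not in their annotated UTRs. A match describes the letters of the transcript and is no measurement of protein binding.

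**Figure D1:**
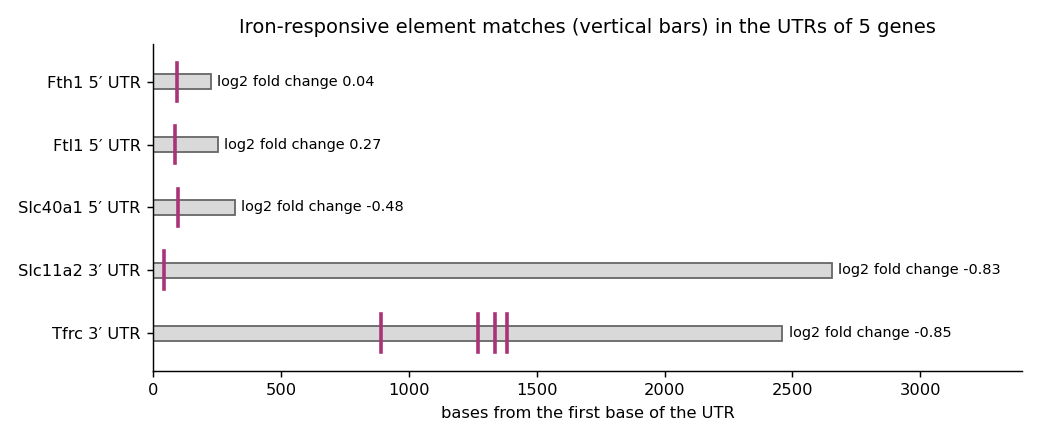
Matches to the iron-responsive element patterns (vertical bars, drawn at the first base of the pattern) along the UTR that holds them (grey), in bases from the start of the UTR, for 5 genes. The label gives the log2 fold change of the gene's RNA, DM-aKG minus control. It was -0.85 for Tfrc and -0.83 for Slc11a2, with matches in the 3′ UTR. The 3 genes with a match in the 5′ UTR ran from -0.48 (Slc40a1) to 0.27 (Ftl1). The Slc11a2 match is to the second pattern, added once Slc11a2 had not matched the first. A link between matches and changes was not tested.

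Levels are RPKM, read counts divided by gene length and library depth, so genes and libraries can be set side by side only roughly. The RPKM sums were 369553 to 374975 in the control libraries and 358636 to 363467 in DM-aKG. Some calls depended on how libraries were scaled, as the closing section shows. The libraries held an estimated 32670000 to 34285000 reads, at which 1 kb of the lowest of these genes, Heph, held 707 to 1066 reads, a counting error of 3.06% to 3.76%. DM-aKG replicate 1 stood apart: 2.15% of the 10852 tested genes lay at least 1.5-fold from the mean of the other libraries of the group, against 0.267% to 0.931% in each of the other 5 libraries. Slc11a2 and Ncoa4 are among those genes, so the changes of the 10 genes are given with and without that library. Because the library was singled out by its values, leaving it out narrows the spread of such genes by choice. The smaller p-values that follow show how far results depend on it and are no added support. All 8 listed epithelial markers were expressed. Markers of the proximal small intestine (4) summed to 197 to 233 RPKM in the controls against 283 to 339 in DM-aKG. Rbp2, the only proximal marker called, rose from 148 ± 15.3 to 234 ± 28.2 RPKM (limma, adjusted p = 0.00113). Gata4, at 45.4 to 50.5 RPKM over all libraries, did not pass. Nor did Onecut2, with means of 15.9 and 17.9 RPKM (limma, adjusted p = 0.0803), or Lct, with 4.12 and 3.65 (limma, adjusted p = 0.482). Distal markers (4) summed to 4.19 to 5.67 RPKM against 9.15 to 9.43, and the 3 that passed the filter (Slc10a2, Slc51a and Slc51b) were higher, Slc10a2 and Slc51a having passed it through DM-aKG alone. The 4 colon markers summed to at most 0.790 RPKM. Markers of other cells were at or near 0 in both groups. Fibroblast and muscle genes (7) summed to at most 0.0900, endothelial genes (4) to at most 0.40 with Cdh5 and Kdr at 0, and erythroid genes (6) to at most 0.590 with the 4 globin genes at 0. Immune genes (8) summed to 2.0 to 2.22 RPKM in the controls against 3.72 to 4.19 in DM-aKG, nearly all from Cd14 and Itgam, while the macrophage marker Adgre1 and the leukocyte marker Ptprc did not exceed 0.0100. In RNA of a whole culture, fewer cells of a type and less RNA per cell cannot be told apart. All 8 epithelial markers were called (limma), where 55.6% of all tested genes were. The 5 higher were Cdh1, Vil1 and the keratins Krt8, Krt18 and Krt19. The 3 lower were Cdx1, Epcam, from 421 ± 4.48 to 334 ± 7.12 RPKM, and Cdx2, from 70.3 ± 1.99 to 40.6 ± 8.90 RPKM. The part of such shifts in the iron gene results was not tested.

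With DM-aKG the RNA of the iron importers Tfrc and Slc11a2 and of the exporter Slc40a1 was lower, and that of hephaestin, IRP2 and, by a less stable call, ferritin light chain was higher. Of the 10 genes, 3 were higher (Heph, Ftl1, Ireb2), 3 lower (Tfrc, Slc11a2, Slc40a1) and 4 did not pass (limma on log2(RPKM + 0.5), Benjamini-Hochberg adjusted p under 0.05 over all genes tested). Among all tested genes 55.6% were called, 30.9% higher and 24.7% lower, so 6 of 10 is near the background and is no result about the group. The median log2 fold change was 0.09 for the 10 genes and 0.02 for all tested genes. The groups did not overlap in 7 of the 10 genes, against 64.2% of all tested genes. A call with a fold of at least 1.5 was reached by Tfrc and Slc11a2, against 12.0% of all tested genes.

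Tfrc, the transferrin receptor, fell strongly and evenly. It stood at 154, 161 and 149 RPKM in the control libraries and at 88.1, 85.45 and 83.8 in the DM-aKG libraries. Every treated library was well below every control, and the libraries within each group lay close together. The mean fell from 155 ± 5.93 to 85.8 ± 2.19 RPKM (SD, n = 3 per group, as throughout), which is 0.553 of the control level. On the log2 scale Tfrc fell by 0.85 ± 0.04 (SE; limma, adjusted p = 9.49e-06), and 5.77% of tested genes had a larger change in either direction. The log2 fold change was -0.87 without DM-aKG replicate 1 (limma, adjusted p = 3.89e-06). The gene lies at chr16:32608920-32632794 on the plus strand of GRCm38.

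Slc11a2, the divalent metal transporter of the brush border and of endosomes, fell by a similar amount but less evenly. Its levels were 252, 254 and 242.5 RPKM in the controls against 105, 159 and 164 in DM-aKG. The groups were apart, and DM-aKG replicate 1 was the lowest library, at 0.652 of the mean of the other treated libraries. The mean fell from 249 ± 6.03 to 143 ± 32.5 RPKM, and the gene fell by 0.83 ± 0.15 in log2 units (limma, adjusted p = 0.00269). Without DM-aKG replicate 1 it fell by 0.63 ± 0.04 (limma, adjusted p = 9.55e-06). The smaller spread there follows from dropping the library singled out by its values. Slc11a2 is on the minus strand, at chr15:100387898-100425072.

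Cybrd1, the ferric reductase that works beside Slc11a2 at the brush border, did not pass the test. It was at 247, 207 and 231 RPKM in the controls and at 222, 257 and 259 in DM-aKG, with overlapping groups. The means were 228 ± 20.0 and 246 ± 20.7 RPKM, and the log2 fold change was 0.11 ± 0.08, with a 95% confidence interval of -0.08 to 0.30 (limma, adjusted p = 0.291). It was 0.18 when DM-aKG replicate 1 was left out, just short of the threshold (limma, adjusted p = 0.0508), and leaving out control replicate 2 gave 0.04 (limma, adjusted p = 0.696). With array weights, which down-weight libraries that fit the model less well, Cybrd1 was called at 0.15 (limma, adjusted p = 0.0250). Cybrd1 spans chr2:71117923-71142926 on the plus strand.

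**Figure D2:**
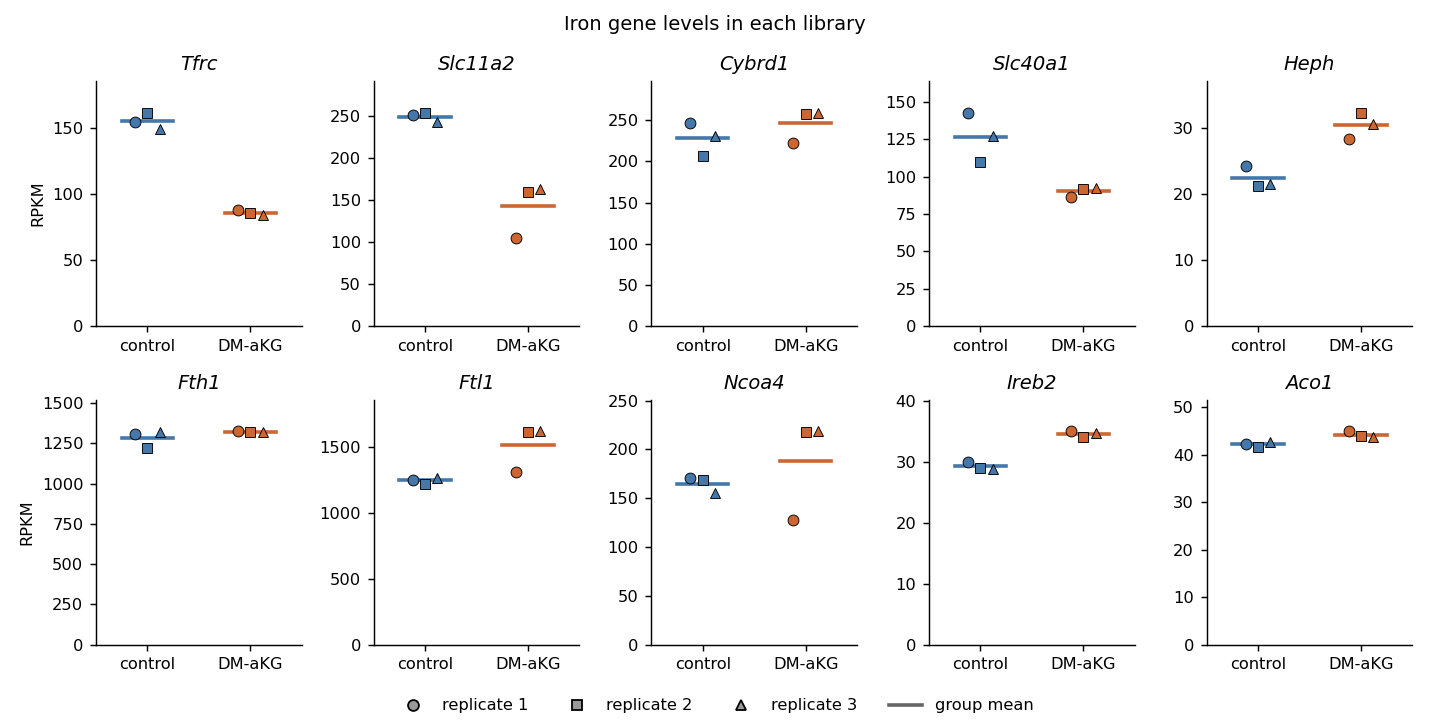
RPKM of the 10 iron genes in each of the 6 libraries (points, shaped by replicate number) with the group means (lines); each panel has its own linear axis from 0. Tfrc, Slc11a2 and Slc40a1 are lower in all 3 DM-aKG libraries, and DM-aKG replicate 1 (circle) lies well below the other treated libraries for Slc11a2, Ftl1 and Ncoa4.

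The exporter and its oxidase moved in opposite directions. Slc40a1, ferroportin, was at 143, 109.5 and 127 RPKM in the controls and at 86.25, 91.6 and 92.4 in DM-aKG. All treated libraries were below all controls, and the controls were more spread than the treated. The mean fell from 126 ± 16.5 to 90.1 ± 3.35 RPKM, a fall of 0.48 ± 0.09 in log2 units (limma, adjusted p = 0.00286). The log2 fold change was -0.45 without DM-aKG replicate 1 and -0.58 without control replicate 2. Slc40a1 lies at chr1:45908068-45926523, minus strand.

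Heph, hephaestin, was the lowest of the 10 genes in both groups, at 24.3, 21.3 and 21.6 RPKM in the controls against 28.4, 32.35 and 30.6 in DM-aKG. The groups did not overlap. Its mean rose from 22.4 ± 1.66 to 30.45 ± 2.002 RPKM, with a log2 fold change of 0.43 ± 0.07 (limma, adjusted p = 0.00128). It was 0.48 without DM-aKG replicate 1. Heph is on the X chromosome, chrX:96455359-96574485, plus strand.

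Ferritin mRNA was by far the most abundant of the group; its light chain passed the test and its heavy chain did not. Fth1, the heavy chain that oxidises iron, was at 1306, 1219 and 1322 RPKM in the controls against 1324, 1321 and 1319.9 in DM-aKG. The treated libraries all lay within 4 RPKM of each other, at the upper edge of the controls. The log2 fold change was 0.04 ± 0.05, with a 95% confidence interval of -0.08 to 0.17 (limma, adjusted p = 0.499), and it was also 0.04 without DM-aKG replicate 1. Ftl1, the light chain that helps the core form, was at 1251, 1219.6 and 1264 RPKM in the controls against 1307, 1614 and 1617 in DM-aKG. Every treated library was above every control, although replicate 1 was only just above. The mean rose from 1245 ± 22.9 to 1512 ± 178 RPKM, a log2 fold change of 0.27 ± 0.09 (limma, adjusted p = 0.0293).

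The call of Ftl1 was not stable. Without DM-aKG replicate 1, the library singled out by its values, the change was 0.38 ± 0.04 (limma, adjusted p = 1.30e-04). The call was lost when control replicate 1 (limma, adjusted p = 0.0753), 2 (0.0822) or 3 (0.0778) or DM-aKG replicate 2 (0.105) or 3 (0.0881) was left out, with no filter on low values (0.112) and with median centring (0.0682). Both genes lie at the top of the expression range, where quantile normalization gave 0.25 for Fth1 (limma, adjusted p = 0.00642) and 0.49 for Ftl1 (limma, adjusted p = 0.00517). Ferritin genes have processed pseudogenes of near-identical sequence, and how reads matching several copies were counted is not known, which makes the ferritin levels uncertain. The summed RPKM of Fth1 and Ftl1 was 2557, 2438 and 2586 in control and 2630.4, 2935 and 2937 in DM-aKG, between 0.650% and 0.819% of each library's RPKM sum. Fth1 lies at chr19:9980598-9985098 (plus strand) and Ftl1 at chr7:45457944-45459884 (minus strand).

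Ncoa4, the receptor that carries ferritin to the lysosome, was the gene on which the treated libraries differed most. It was at 170.2, 169 and 155 RPKM in the controls and at 127, 218 and 218 in DM-aKG. Replicate 1 was below every control, and the other treated libraries were above every control. Over all libraries the log2 fold change was 0.15 ± 0.19, with a 95% confidence interval of -0.30 to 0.59 (limma, adjusted p = 0.538). Without DM-aKG replicate 1 the gene was higher by 0.40 ± 0.05 (limma, adjusted p = 2.42e-04), and with array weights by 0.40 as well (limma, adjusted p = 0.00301). That library was singled out by its values, Ncoa4 among them, so the fit without it is no independent support for a rise. The log2 fold change of Ncoa4 was 0.02 without DM-aKG replicate 2 (limma, adjusted p = 0.951) and 0.02 without DM-aKG replicate 3 (limma, adjusted p = 0.952). The gene is at chr14:32159865-32179855, plus strand.

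Of the genes of the iron regulatory proteins, Ireb2 rose by a small amount and Aco1 did not pass. Ireb2, which encodes IRP2, was at 30.0, 29.0 and 28.8 RPKM in the controls and at 35.0, 34.0 and 34.7 in DM-aKG. The groups were apart with a narrow spread, and the mean rose from 29.3 ± 0.627 to 34.6 ± 0.479 RPKM, a log2 fold change of 0.24 ± 0.04 (limma, adjusted p = 0.00148), and 0.23 without DM-aKG replicate 1. Aco1, which encodes IRP1, was at 42.2, 41.7 and 42.7 RPKM in the controls and at 44.9, 44.0 and 43.7 in DM-aKG. All treated libraries of Aco1 were above all controls, but the log2 fold change of 0.07 ± 0.04 did not pass (limma, adjusted p = 0.158), with a 95% confidence interval of -0.02 to 0.15. It was 0.05 without DM-aKG replicate 1, and it passed at 0.10 when libraries were rescaled to an equal sum (limma, adjusted p = 0.0457). IRP2 is lost from cells mainly by protein degradation and IRP1 switches form with its cluster, neither of which RNA shows. Ireb2 spans chr9:54863789-54912530 and Aco1 chr4:40143081-40198338, both on the plus strand.

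**Figure D3:**
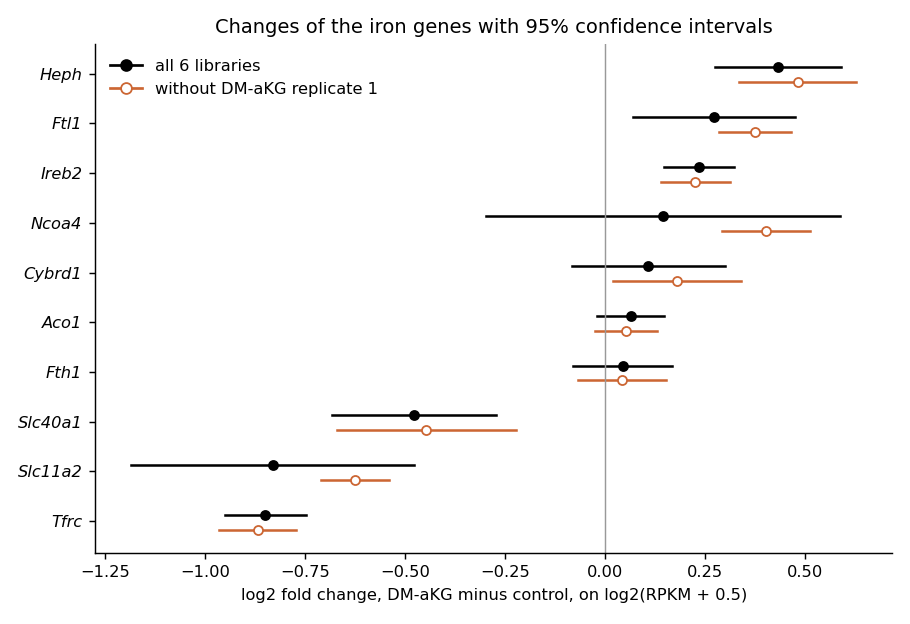
Log2 fold change (DM-aKG minus control, on log2(RPKM + 0.5)) of the 10 iron genes with 95% confidence intervals from limma, for all 6 libraries (black) and without DM-aKG replicate 1 (open orange). Leaving that library out narrows the interval of Slc11a2, Ftl1 and Ncoa4, and moves Ncoa4 from 0.15 to 0.40. The library was singled out by its values, so the narrowing is no added support.

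Ranked by mean level, the order in control was Fth1, Ftl1, Slc11a2, Cybrd1, Ncoa4, Tfrc, Slc40a1, Aco1, Ireb2 and Heph. Neighbours whose libraries overlapped in control were Fth1 with Ftl1, Slc11a2 with Cybrd1, and Ncoa4 with Tfrc; the other neighbours did not overlap. In DM-aKG the order was Ftl1, Fth1, Cybrd1, Ncoa4, Slc11a2, Slc40a1, Tfrc, Aco1, Ireb2 and Heph. There, Ftl1 overlapped with Fth1, Ncoa4 with Slc11a2, and Slc40a1 with Tfrc. Slc11a2 thus went from the third to the fifth place and Tfrc from the sixth to the seventh. Among all 24956 listed genes Fth1 ranked 23 in control and 16 in DM-aKG, Ftl1 26 and 8, Slc11a2 195 and 368, and Tfrc 332 and 698.

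Ratios within a library do not depend on how libraries were scaled, and 5 were compared with an exact two-sided permutation test, which with 3 against 3 cannot give a p below 0.1. The Tfrc/Fth1 ratio, receptor against storage, was 0.118, 0.132 and 0.113 in control and 0.0666, 0.0647 and 0.0635 in DM-aKG. It was lower in 3 of 3 treated libraries than in any control, with a log2 difference of -0.90 (exact permutation p = 0.1, adjusted over the 5 ratios 0.125). The Heph/Slc40a1 ratio, oxidase against exporter, was 0.171, 0.195 and 0.170 in control and 0.329, 0.353 and 0.332 in DM-aKG, with no overlap and a log2 difference of 0.92. Its p was also the smallest that the design allows (exact permutation p = 0.1, adjusted 0.125).

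The Tfrc/Slc40a1 ratio, import against export, went from 1.24 ± 0.203 to 0.954 ± 0.0603 (log2 difference -0.37), and the Ireb2/Aco1 ratio from 0.694 ± 0.0177 to 0.782 ± 0.0103 (log2 difference 0.17); neither overlapped (exact permutation p = 0.1 for each, adjusted 0.125). Each treated library thus held less Tfrc relative to Slc40a1 than any control did. Without control replicate 2, the control with the highest Tfrc/Slc40a1 ratio, the log2 difference was -0.25. The ratio of light to heavy ferritin, Ftl1/Fth1, was 0.958, 1.0007 and 0.956 in control and 0.987, 1.22 and 1.22 in DM-aKG. Its groups overlapped, through DM-aKG replicate 1 (exact permutation p = 0.2, adjusted 0.2). The log2 difference of Ftl1/Fth1 was 0.23, and 0.33 without that library.

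**Figure D4:**
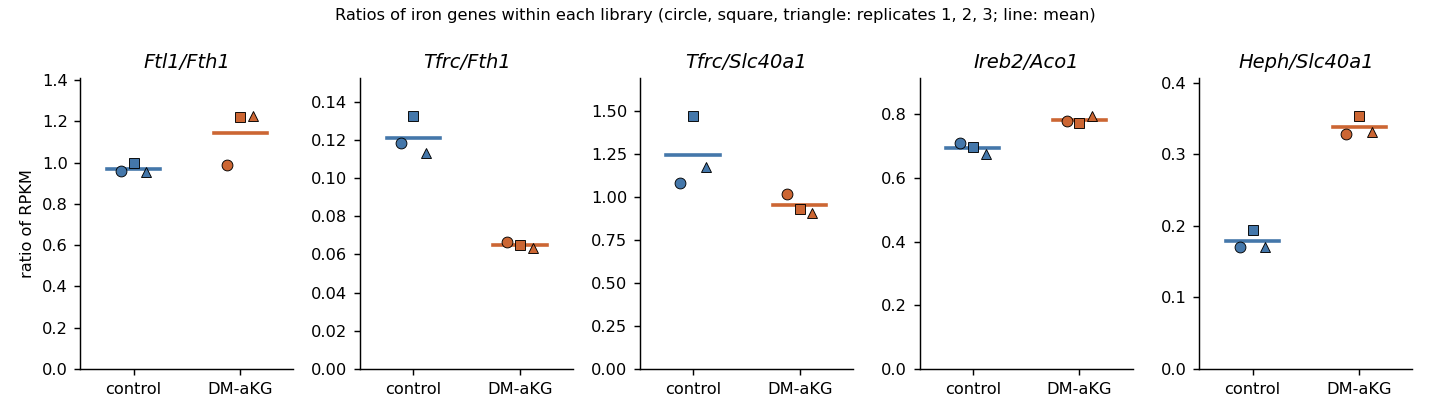
Ratio of RPKM between pairs of iron genes in each library (circle, square and triangle for replicates 1, 2 and 3; line for the group mean; linear axes from 0). Tfrc/Fth1 and Heph/Slc40a1 separate the groups most widely, with log2 differences of -0.90 and 0.92, and Ftl1/Fth1 is raised in DM-aKG replicates 2 and 3 only.

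Beyond the 10, a list of 79 other genes of iron, heme and iron-sulfur metabolism was examined by role. Of these 63 passed the filter, and 23 were higher, 14 lower and 26 without a call; the share called, 58.7%, is near the 55.6% of all tested genes. Their median log2 fold change was 0.09, against 0.02 over all tested genes. Most of the changes were small: a call with a fold of at least 1.5 was reached by 6 higher genes and 1 lower, together 7 of 63, where 12.0% of all tested genes reached it. Among the higher genes in these counts is Hfe, which lay under 1 RPKM in the controls and passed the filter only through its level in DM-aKG.

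Hmox1 and Blvrb, of heme breakdown, and Alas1, of heme synthesis, rose. Hmox1, the inducible heme oxygenase that frees iron from heme, was at 4.72, 6.64 and 4.92 RPKM in the controls against 9.07, 12.5 and 13.6 in DM-aKG. Every treated library was above every control, with a log2 fold change of 1.04 ± 0.16 (limma, adjusted p = 0.00139). Blvrb, a biliverdin reductase, rose from 12.6 ± 0.257 to 21.5 ± 0.591 RPKM, and Pgrmc1, a heme-binding membrane protein, from 83.45 ± 3.54 to 114 ± 11.8 RPKM. The 3 lower genes of that list encode transporters. Slc46a1, a folate and heme carrier of the brush border, fell from 29.6 ± 2.51 to 23.7 ± 0.813 RPKM, a fall of 0.31 ± 0.06 in log2 units (limma, adjusted p = 0.00453). The heme exporter Flvcr1 fell by 0.22 and the lysosomal heme transporter Slc48a1 by 0.13, both by calls that were lost in several of the fits without a library. In all, 3 of 9 tested genes of heme transport and breakdown were higher, 3 lower and 3 without a call, so that 66.7% were called against 55.6% of all tested genes.

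For Flvcr1 the adjusted p by limma was 0.0802 without control replicate 1, 0.0778 without control replicate 3, 0.0926 without DM-aKG replicate 2 and 0.0869 without DM-aKG replicate 3. For Slc48a1 it was 0.0903 without control replicate 2, 0.110 without control replicate 3, and 0.0530, 0.0656 and 0.0765 without DM-aKG replicates 1, 2 and 3. Without a filter on low values it was 0.0511 for Flvcr1. Both calls also missed the threshold when libraries were rescaled to an equal sum (limma, adjusted p = 0.0548 for Flvcr1 and 0.104 for Slc48a1).

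Of 8 tested heme synthesis genes, 3 were higher, 1 lower and 4 without a call (50.0% called, against 55.6% of all tested genes). Alas1, the rate-limiting first enzyme, stood at 21.15, 23.4 and 21.3 RPKM in the controls and at 39.4, 41.5 and 39.9 in DM-aKG, and rose by 0.86 ± 0.05 in log2 units (limma, adjusted p = 1.63e-05). The groups were far apart. Alad, the next enzyme of the path, rose by 0.40 ± 0.09 (limma, adjusted p = 0.00796). Fech, which inserts iron in the last step, fell by 0.18 ± 0.05 (limma, adjusted p = 0.0227), a call lost on leaving out control replicate 2 (limma, adjusted p = 0.0660) or 3 (0.0705) and on leaving out DM-aKG replicate 2 (0.0583) or 3 (0.0728).

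Mitochondrial iron import and iron-sulfur assembly had 9 higher, 3 lower and 8 genes without a call of 20 tested, a called share of 60.0% against 55.6% of all tested genes. Slc25a37, mitoferrin 1, rose from 12.5 ± 0.687 to 17.7 ± 0.433 RPKM, up by 0.49 ± 0.05 in log2 units (limma, adjusted p = 2.18e-04). Its relative Slc25a28, mitoferrin 2, named after its values were seen, rose from 17.7 ± 0.800 to 24.3 ± 0.428 RPKM. The cluster carrier gene Nfu1 rose by 0.52 ± 0.05 and the sulfhydryl oxidase gene Gfer by 0.45 ± 0.05. The lower genes were the co-chaperone Hscb and the assembly factors Iba57 and Isca1, which fell by 0.20, 0.16 and 0.13 on the log2 scale. Each of those falls was small, and each call was lost without at least 1 library. Without control replicate 3, for example, the adjusted p by limma was 0.0730 for Hscb, 0.105 for Iba57 and 0.0818 for Isca1. Without control replicate 2 it was 0.0650, 0.0980 and 0.0597, and without control replicate 1 it was 0.0759 for Iba57 and 0.0522 for Isca1. Without DM-aKG replicate 3 it was 0.0696 for Hscb and 0.0524 for Iba57, and without DM-aKG replicate 2 it was 0.134 for Iba57. With an equal sum per library it was 0.101 for Iba57 and 0.0902 for Isca1, and without a filter 0.0685 for Iba57.

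**Figure D5:**
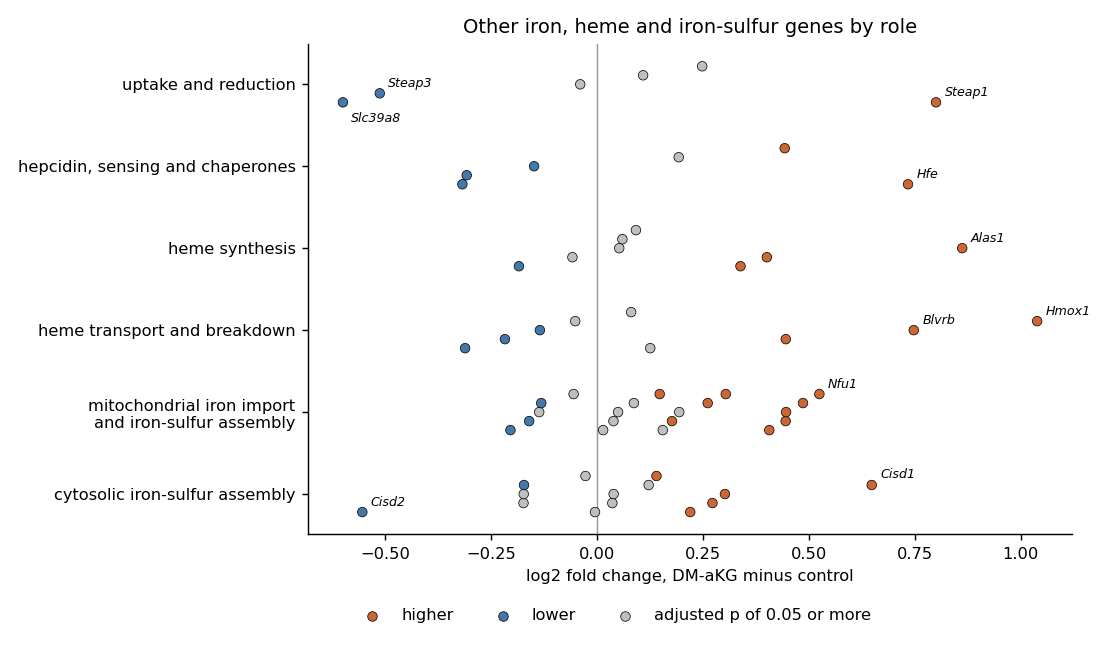
Log2 fold change (DM-aKG minus control) of the 63 tested genes of the wider iron list, 1 point per gene, by role and coloured by limma call; points are staggered vertically for legibility and genes with a change of at least 0.5 are named. Rises are led by Hmox1 (1.04), Alas1 (0.86) and Steap1 (0.80), and the lowest point is Slc39a8 (-0.60).

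In the list of cytosolic iron-sulfur assembly, 5 of 14 tested genes were higher, 2 lower and 7 without a call (50.0% called, against the same 55.6%). The largest changes were in Cisd1 and Cisd2 of the CISD family. They encode membrane proteins that hold a cluster and sit on mitochondria or the endoplasmic reticulum rather than in the assembly complex. Their relative Cisd3 had no call, at 92.4 ± 4.88 RPKM in the controls and 82.1 ± 8.01 in DM-aKG (limma, adjusted p = 0.0773). Cisd1, mitoNEET of the outer mitochondrial membrane, rose from 43.6 ± 1.91 to 68.9 ± 8.49 RPKM, a log2 fold change of 0.65 ± 0.09 (limma, adjusted p = 6.56e-04). Cisd2, of the endoplasmic reticulum, fell from 18.5 ± 1.60 to 12.4 ± 1.43 RPKM, by 0.55 ± 0.09 in log2 units (limma, adjusted p = 0.00153). Fam96b and Narfl, of the targeting complex, rose by 0.30 ± 0.05 and 0.27 ± 0.06. Bola2, a partner of the glutaredoxin Glrx3, fell by 0.17 ± 0.04, while Glrx3 itself rose by 0.22 ± 0.05 (limma, adjusted p = 0.00733).

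Among other routes of uptake and reduction, 1 of 6 tested genes was higher, 2 lower and 3 without a call, again 50.0% called against 55.6%. Steap1, a member of the STEAP membrane family, rose from 7.22 ± 0.279 to 13.01 ± 1.83 RPKM, up by 0.80 ± 0.09 in log2 units (limma, adjusted p = 2.95e-04). Steap3, the ferrireductase of the transferrin receptor endosome, was low throughout, at 2.11, 2.05 and 2.0 RPKM in the controls against 1.28, 1.31 and 1.28 in DM-aKG. The groups did not overlap, and Steap3 fell by 0.51 ± 0.07 in log2 units (limma, adjusted p = 9.02e-04), alongside Tfrc. Slc39a8, a zinc, manganese and iron importer, was at 34.3, 35.65 and 33.6 RPKM in the controls and at 28.7, 20.2 and 19.95 in DM-aKG, and fell by 0.60 ± 0.13 (limma, adjusted p = 0.00530). Transferrin itself, Trf, lay below the filter, at 0.730 to 0.980 RPKM in the controls against 0.990 to 1.20 in DM-aKG.

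Of the 6 tested genes of hepcidin, sensing and iron chaperones, 2 were higher (1 of them Hfe), 3 lower and 1 without a call, a called share of 83.3% against 55.6% of all tested genes. Hepcidin (Hamp), the liver hormone that removes ferroportin from the membrane, was listed at 0 in 5 of the 6 libraries. Epas1, which encodes HIF-2α, the regulator of iron absorption genes in the duodenum, rose from 11.3 ± 0.459 to 15.5 ± 0.395 RPKM, up by 0.44 ± 0.05 in log2 units (limma, adjusted p = 2.25e-04). Slc11a2, Cybrd1 and Slc40a1 are among the genes it is known to activate. Here the RNA of Slc11a2 and Slc40a1 fell and Cybrd1 did not pass. The level and activity of HIF-2α protein were not measured, and a link was not tested. Hfe, the hemochromatosis gene, was at 0.810 ± 0.10 RPKM in the controls and 1.68 ± 0.124 in DM-aKG; since only its DM-aKG level brought it past the filter, its call is no support for a rise of the list. Fbxl5, the iron-sensing subunit of the ligase that degrades IRP2, was at 18.1 ± 2.15 RPKM in the controls against 20.7 ± 2.02 in DM-aKG with overlapping groups (limma, adjusted p = 0.126). Fbxl5 was called when control replicate 1 was left out (limma, adjusted p = 0.0442) or DM-aKG replicate 1 (0.0294), with log2 fold changes of 0.28 and 0.27, and with array weights (0.00585), with 0.25.

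The cytosolic iron chaperone genes Pcbp1 and Pcbp2, whose proteins also bind RNA and hand iron to ferritin, were lower in all 3 treated libraries than in any control. Pcbp2 fell by 0.31 ± 0.06 in log2 units, from 175 ± 9.35 to 141 ± 8.27 RPKM (limma, adjusted p = 0.00320). Pcbp1 fell by 0.15 ± 0.05, from a mean of 234 ± 7.86 to a mean of 211 ± 9.08 RPKM (limma, adjusted p = 0.0328); its call was lost on leaving out control replicate 1 (limma, adjusted p = 0.111), control replicate 3 (0.108) or DM-aKG replicate 2 (0.117), with an equal sum per library (0.114) and without a filter (0.0539). Neo1, a BMP co-receptor partner of hemojuvelin, fell by 0.32 ± 0.06 on the log2 scale.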

How the data were processed

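RNA of 6 libraries (3 control, 3 DM-aKG) was compared. The authors deposited RPKM per gene symbol, with 2 decimals; the submitters' processing notes name HISAT2 2.0.4, CASAVA 1.8, Partek without a version and the build mm10. The sources used here give no annotation, strand or treatment of multi-mapped reads. Values were analysed as log2(RPKM + 0.5) with a mean of at least 1 RPKM over the 6 libraries, which left 10852 genes; this scale makes the changes of weakly expressed genes look smaller. The comparison used limma 3.58.1 (R 4.3.3) with a mean-variance trend (two-sided, no replicate term), with Benjamini-Hochberg adjustment over all tested genes and calls under 0.05. The procedure was also run on simulated data with independent noise and few changed genes. These data differ from that setting, so the run does not give the error rate here. Depth was estimated from the value of 1 read in short RNA genes (miRNA, snoRNA) up to 150 bases long by RefSeq: of other values up to 5 reads, 90.9% to 94.4% came out whole within 0.05 reads. Positions and UTRs are GENCODE M21 (GRCm38, the assembly of mm10). The genes, lists and tests were chosen with earlier results of these data known. Named were all 10 genes, and of each other iron list up to 3 called genes with the largest rise and 3 with the largest fall, plus Hmox1, Trf, Hamp, Fbxl5, Epas1, Fech, Slc25a37 and Slc46a1; other genes named are markers or were chosen after their values were seen. A gene that this rule names is not reported here. Alternatives (pseudocount, filter, scaling, variance model, weights, replicate block, omitted libraries) are in the closing section. Tables and plots were made with pandas 2.3.3, numpy 2.4.6 and matplotlib 3.10.9 under Python 3.11.15.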

Additional observations from a re-analysis of the deposited data

How the results depend on the processing

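Under 17 alternatives to the limma fit, Tfrc, Slc40a1, Slc11a2, Heph and Ireb2 kept their direction and their call, with log2 fold changes of -0.90 to -0.81, -0.58 to -0.39, -0.94 to -0.61, 0.37 to 0.51 and 0.18 to 0.27. Fth1 was -0.004 with median centring and 0.25 with quantile normalization. Of the 10 iron genes 3 were called higher in the main fit. The number was 2 with no filter and with median centring, and 4 with quantile normalization and with an equal sum per library. It was 5 with array weights and without both control replicate 2 and DM-aKG replicate 1 (added Ncoa4 and Cybrd1). Without 1 library it was 2 to 4, and the number lower was 3 throughout. Of the other iron genes, 14 were lower, and 9 with an equal sum per library. Without 1 library 7 to 16 were lower (9 without control replicate 2, 7 without control replicate 3, 9 without DM-aKG replicate 2 or 3). The number of other iron genes called higher was 23, with 20 to 27 without 1 library and 30 with array weights. The calls over all tested genes also moved, so the counts of iron genes are no result about the group. Median centring turned them from 3354 higher and 2679 lower to 2790 and 3340, and an equal sum per library to 3809 and 2254. They were 4149 and 3563 with array weights, and 3721 and 3270 without both control replicate 2 and DM-aKG replicate 1. Without 1 library, 2699 to 3660 of all tested genes were higher and 2049 to 3200 lower. The 5 ratios kept their direction in all alternatives, with Ftl1/Fth1 at 0.18 to 0.33 and Tfrc/Slc40a1 at -0.47 to -0.25 without 1 library. Same-numbered libraries did not deviate together (correlations of -0.0832, -0.114 and 0.0110 across genes). Differently numbered libraries gave -0.0331 to 0.0998. With 3 libraries a group this cannot tell whether the numbers pair the samples. With the replicate block 3 iron genes were higher and 3 lower. Of the other iron genes 25 were higher and 12 lower, with Slc48a1 (limma, adjusted p = 0.0546) and Iba57 (0.0746) no longer called. With 3 libraries a group, small changes such as that of Aco1 are at the limit of detection.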

Other observations

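Of the wider iron list, 16 genes lay below the filter and were not tested. Hamp2, the second mouse hepcidin gene, was at 1.11, 1.09 and 0.630 RPKM in control and at 0.13, 0.0700 and 0.0700 in DM-aKG, lower in all 3 treated libraries. The transferrin receptor gene Tfr2 was at 0.210 to 0.290 RPKM in control and 0.140 to 0.180 in DM-aKG, also without overlap. The siderophore-binding lipocalin gene Lcn2 and the ferritin receptor gene Scara5 were listed at 0 in all 6 libraries, as were Ftmt, the mitochondrial ferritin, and Hfe2, hemojuvelin. The ferroxidase genes Cp and Hephl1 did not exceed 0.05 RPKM, so Heph was the only one of these 3 oxidase genes with a level above the filter.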
